A study of Rattus norvegicus with 12 samples.

Results

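Expression in articular cartilage of the rat knee was compared 8 weeks after surgery that induces osteoarthritis (OA) with 8 weeks after sham surgery, in 3 arrays labelled OA and 3 labelled sham, which are 6 of the 12 arrays of the study. The 6 arrays were chosen by the surgery and time in their titles and not by any measured value. The other 6 arrays hold the same surgeries at 2 weeks and entered the fit only to estimate the spread, and in the comparison of the times. Total RNA of knee cartilage was labelled with biotin and hybridized to 1-colour Affymetrix arrays. The labels refer for the surgery to a published rat model, in which, as background, the anterior cruciate ligament is cut and part of the medial meniscus removed, while a sham operation opens the joint only. Strain, sex and age of the rats are not given in the sources used here, and the labels do not say whether the arrays of a group come from separate animals. The p-values therefore measure only the spread between these samples, and all values are only as precise as so few arrays allow.

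Articular cartilage is built by 1 resident cell type, the chondrocyte, which lays down a network of type II, IX and XI collagen filled with aggrecan. In osteoarthritis chondrocytes leave their resting state, secrete matrix-degrading enzymes and growth factors, and the bone and marrow under the cartilage are remodelled at the same time. EGF receptor ligands such as transforming growth factor alpha, oxygen-sensing and nutrient-sensing pathways, and the secretory machinery that folds collagen are among the systems known to act in these cells.

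Values are log2 GCRMA signals, in which a difference of 1 is a change of 2-fold. A probe set was kept if it exceeded log2 4 in 3 or more of the 6 arrays, which left 15338 probe sets and 8966 genes with 1 probe set each. A gene with all arrays of 1 group under log2 4 passed only through the group where it is high. Its p is therefore a description and no support. Among the genes named below this held for Cd68, Cpxm1, Cfd, Foxs1, Nt5dc2, Pstpip1, Adamts9 and Cdh2 through sham, and for Arhgef5 through OA. A gene is said to have risen or fallen in OA where its Benjamini-Hochberg adjusted p was under 0.05 in limma, fitted over all 12 arrays. Errors after a difference are its standard error, and errors after a mean are the SD of 3 arrays. An exact permutation test of 3 against 3 arrays cannot give a p under 0.1 and was not used.

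The arrays of a group correlated with each other at 0.969 to 0.983, and between 49.3% and 49.9% of probe sets exceeded log2 4 in each. Principal component 1 (52.5% of the variance) placed the OA arrays at -60.7, -25.7 and -14.1 and sham replicates 2 and 3 at 52.9 and 47.3, with sham replicate 1 between the groups at 0.201. OA replicate 1 stood apart. The mean level of 22 skeletal muscle markers was 14.29 in it against 10.72 and 9.36 in the other OA arrays, while sham read 10.09, 5.76 and 7.54, and its 3-prime minus 5-prime difference of the Gapdh control probe sets was 0.885 against 1.24 to 1.47 elsewhere. Markers of the labelled cells were high in every array: the mean of 19 chondrocyte markers lay between 12.83 and 13.29, and Col2a1 read 15.88, 16.04 and 16.09 in OA against 16.27, 16.17 and 16.16 in sham.

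At 8 weeks 94 genes rose and 229 fell, so 323 of 8966 genes (3.6%) were called, 1.05% higher and 2.55% lower. The shares of 1.05% and 2.55% are the background for every count of risen or fallen list members below. At the level of probe sets 561 of 15338 were called (3.66%), 247 higher (1.61%) and 314 lower (2.05%). In all 323 genes the 3 OA arrays lay on 1 side of the 3 sham arrays, which was also true of 2324 genes in all (25.9%), 10.1% with OA above and 15.8% with OA below sham. Among the called genes 49 rose and 102 fell by more than 2-fold. The median difference was 1.02 for the genes that rose, -0.893 for those that fell and -0.029 for all genes. Of the 3994 kept probe sets that carry no single gene symbol, 156 were called and stay unnamed here.

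These counts depended on single arrays and on the spread taken from the 2-week arrays. Without OA replicate 2, sham replicate 2 or sham replicate 3, 132, 86 and 58 genes were called, and without sham replicate 1 the count was 537. With the replicate number as a block within each time 679 genes were called. With the level of the muscle markers as a covariate the count was 36, and with only the 6 arrays of 8 weeks in the fit it was 16 (0.178%), although 3325 probe sets reached an unadjusted p under 0.05 with 12 arrays and 2739 with 6. No called gene changed its sign in any of these fits. The muscle level was itself higher in most OA arrays than in sham, so the fit with this covariate cannot separate it from the OA effect. Of the 323 genes 54 were called whichever of the 6 arrays was left out, 18 higher and 36 lower, and 32 were called with the muscle covariate. The 16 genes of the smaller fit were all among the 323, and, on the 1 probe set chosen per gene, every other gene described as risen or fallen below was not called with the 6 arrays alone.

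**Figure D1:**
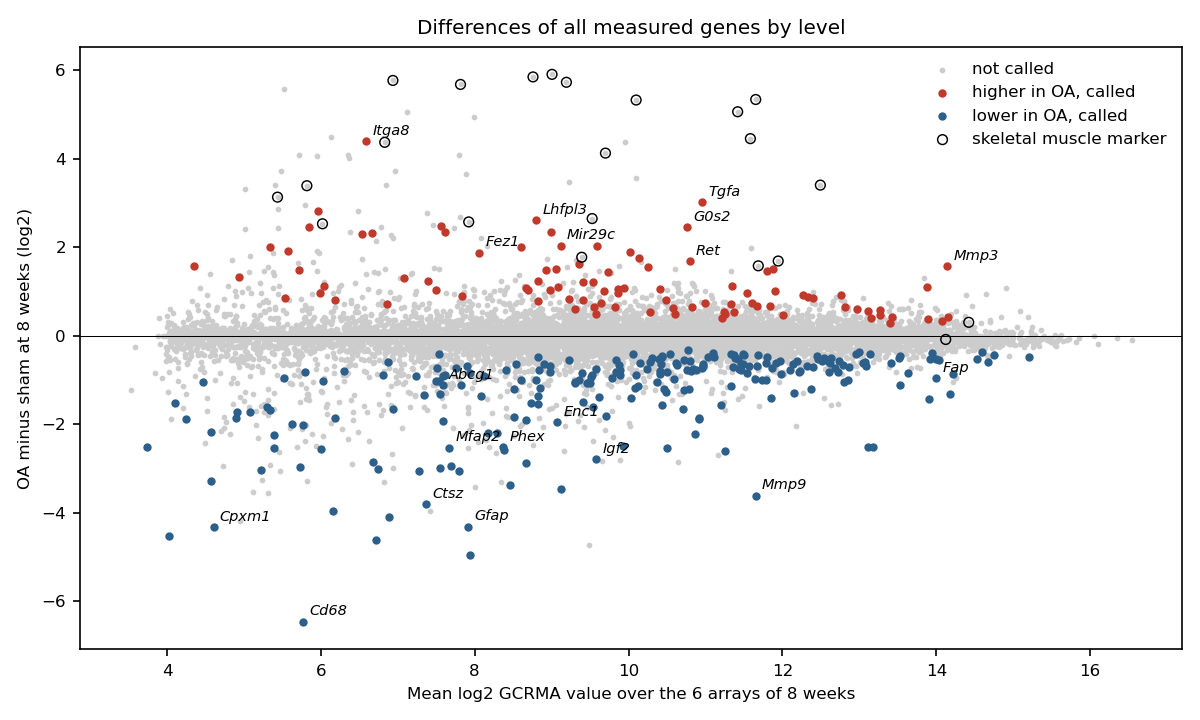
Difference between OA and sham at 8 weeks (log2, y axis) against the mean log2 GCRMA value over the 6 arrays (x axis) for 8966 genes. Red and blue points are the 94 genes higher and 229 lower in OA that were called, grey points were not called, and open circles are the skeletal muscle markers, of which 21 of 22 lay above 0 and 0 were called.

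The 16 genes called in both fits were 9 that rose and 7 that fell. Tgfa, an EGF receptor ligand, read 12.21, 12.45 and 12.75 in OA against 9.43, 9.47 and 9.44 in sham. Sham varied by an SD of 0.018 and the groups lay far apart, a difference of 3.02 ± 0.15 (adjusted p = 2.25e-05; 0.0214 with 6 arrays). A dimmer Tgfa probe set differed by -0.17 ± 0.53, so the rise rests on 1 of its probe sets. Fez1, whose product links cargo to kinesin motors, read 8.76, 9.19 and 9.05 in OA against 7.11, 7.11 and 7.14 in sham, again with sham arrays close together. It rose by 1.88 ± 0.15 (adjusted p = 0.00037; 0.0214 with 6 arrays), or 3.67-fold.

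Itga8, the integrin alpha 8 chain that binds RGD motifs of matrix proteins, read 9.37, 9.05 and 7.95 in OA against 4.30, 4.58 and 4.31 in sham. Sham was near the level of the filter and the OA arrays were all well above it, with replicate 3 the lowest of them (4.39 ± 0.29, adjusted p = 0.000147; 0.0279 with 6 arrays). Lhfpl3, a tetraspan membrane protein gene, read 10.32, 10.05 and 9.94 in OA against 7.90, 7.19 and 7.41 in sham, without overlap (2.60 ± 0.20; 0.0259 with 6 arrays). Mmp3, the stromelysin that cleaves proteoglycans and activates procollagenases, was already among the brightest genes in sham and read 14.69, 14.88 and 15.20 in OA against 13.48, 13.18 and 13.40 in sham. The 3 OA arrays all lay above the highest sham array (1.57 ± 0.14, adjusted p = 0.048 with 6 arrays). The mean of OA was alike at 2 weeks (14.91) and 8 weeks (14.93), while that of sham was 14.73 at 2 weeks and 13.36 at 8 weeks.

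Ret, the receptor tyrosine kinase of the GDNF family of growth factors, read 11.55, 11.87 and 11.48 in OA against 9.74, 10.08 and 10.06 in sham. Each OA array was more than 2-fold above every sham array, and Ret rose by 1.68 ± 0.30 (adjusted p = 0.0178; 0.0348 with 6 arrays). Its call in the 12-array fit ended without OA replicate 2 (0.0631), sham replicate 2 (0.056) or sham replicate 3 (0.0684). Slc22a5, the carnitine transporter of the plasma membrane, read 6.38, 6.47 and 6.59 in OA against 5.51, 5.48 and 5.54 in sham, a rise of 0.97 ± 0.17 (adjusted p = 0.0173; 0.0367 with 6 arrays). Without the same 3 arrays its adjusted p was 0.054, 0.0653 and 0.0697. Arhgef5 read 5.08, 5.02 and 5.32 in OA against 3.48, 3.55 and 3.65 in sham. All its sham arrays lay under log2 4, where signals carry little information on size. It passed the filter through OA alone (adjusted p = 0.00564, and 0.0214 with 6 arrays).

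The last of the 9 is a probe set that the array annotation assigns to Mir29c, the gene of a microRNA family known to target collagen transcripts. It read 10.58, 9.94 and 9.88 in OA against 8.20, 8.04 and 8.07 in sham, a rise of 2.03 ± 0.26 (adjusted p = 0.00523; 0.0436 with 6 arrays). Which transcript the probe set reports is known here only from that annotation, and mature microRNAs were not measured. The 2 mature arms of the gene are shown because the seed, bases 2 to 8 and printed in capitals, is what defines their targets; the sequences are from RefSeq, build GRCr8, plus strand, at chr13:109099374-109099395 for the 5p arm and chr13:109099412-109099433 for the 3p arm.
rno-miR-29c-5p: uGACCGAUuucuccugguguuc
rno-miR-29c-3p: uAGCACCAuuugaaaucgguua

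Among the 7 genes that fell in both fits, Enc1, an actin-binding kelch protein gene, read 7.92, 8.00 and 8.36 in OA against 10.06, 9.87 and 10.21 in sham, a fall with no overlap (-1.95 ± 0.15, adjusted p = 0.000249; 0.0259 with 6 arrays). Mfap2, a glycoprotein of elastic microfibrils, read 6.05, 6.30 and 6.86 in OA against 8.70, 9.13 and 8.98 in sham (-2.53 ± 0.23; 0.0348 with 6 arrays). Abcg1, which exports cholesterol to lipoproteins, read 7.07, 6.99 and 7.01 in OA against 8.05, 8.22 and 8.16 in sham. The arrays of each group lay close together, and the fall was -1.12 ± 0.10 (0.0229 with 6 arrays). Cd68, a lysosomal membrane protein of macrophages and osteoclasts, read 2.26, 2.39 and 2.98 in OA against 7.86, 9.21 and 9.95 in sham. All its OA arrays lay under log2 4, where its size is only approximate. It passed the filter through sham alone (adjusted p = 0.000147, and 0.0279 with 6 arrays).

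Phex, an endopeptidase of osteocytes that controls phosphate handling, read 6.89, 7.01 and 7.43 in OA against 9.73, 9.36 and 9.82 in sham (-2.53 ± 0.38, adjusted p = 0.0103; 0.0229 with 6 arrays), and its adjusted p was 0.0527 without sham replicate 3. Cpxm1, a secreted carboxypeptidase-like protein gene, read 2.48, 2.46 and 2.39 in OA against 6.15, 7.37 and 6.79 in sham. Its OA arrays too lay under log2 4, and it passed the filter through sham alone (adjusted p = 0.00972, and 0.0214 with 6 arrays). Calml3, a calmodulin-like calcium sensor gene, read 8.03, 8.16 and 8.11 in OA against 8.97, 9.09 and 9.25 in sham, with narrow groups that did not overlap (-1.004 ± 0.22, adjusted p = 0.039; 0.048 with 6 arrays). The Calml3 call ended with the replicate block (0.0512) and without any of the 8-week arrays except sham replicate 1 (0.0692 to 0.148). Of the 16 genes, Tgfa, Fez1, Itga8, Lhfpl3, Mmp3, Enc1, Mfap2, Abcg1 and Cd68 were called in addition with each 8-week array left out, with the muscle covariate and with the replicate block. The plot of the 16 genes by array shows the separation of the groups.

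**Figure D2:**
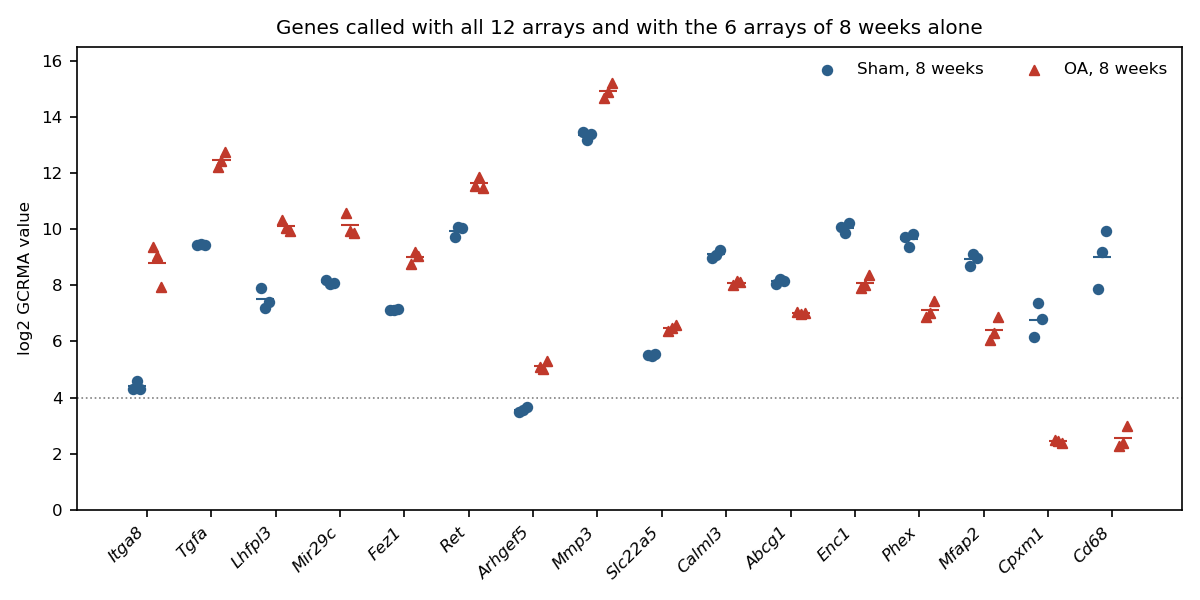
Log2 GCRMA value (y axis) of the 16 genes called in both fits, with the 3 OA arrays of 8 weeks as red triangles, the 3 sham arrays as blue circles and short lines at the group means; the dotted line is log2 4. The groups do not overlap in any of the 16 genes, and the OA arrays of Cd68 and Cpxm1 and the sham arrays of Arhgef5 lie under the dotted line.

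Further genes with small p-values rose at moderate levels. Ssbp2, a cofactor of LIM-domain transcription factors, read 9.66, 9.47 and 9.36 in OA against 8.62, 8.28 and 8.48 in sham (1.04 ± 0.12, adjusted p = 0.00251), while its dimmer probe set differed by 0.25 ± 0.14 and overlapped. Gem, a small GTPase that inhibits voltage-gated calcium channels, read 10.64, 11.05 and 10.11 in OA against 8.69, 8.91 and 8.14 in sham (2.02 ± 0.27, adjusted p = 0.00623). Stard13 read 10.74, 10.96 and 10.99 in OA against 10.07, 10.22 and 9.96 in sham (0.81 ± 0.12, adjusted p = 0.00868). In all 3 the lowest OA array lay above the highest sham array.

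Sncaip, which encodes the alpha-synuclein partner synphilin-1, rose by 1.48 ± 0.20 (adjusted p = 0.00623) from a sham mean of 4.98, and Th, the rate-limiting enzyme of catecholamine synthesis, rose by 0.86 ± 0.11 (adjusted p = 0.00523). Both were dim: Th read 6.16, 5.71 and 6.04 in OA against 5.17, 5.02 and 5.14 in sham, without overlap but near the lower end of the measured range. Cage1 rose by 1.91 ± 0.21 (adjusted p = 0.0026). Slc22a4, the ergothioneine transporter and neighbour of Slc22a5 in its family, read 10.06, 11.22 and 11.61 in OA against 9.15, 9.15 and 8.93 in sham (1.89 ± 0.33, adjusted p = 0.0173), with OA replicate 1 the lowest of the OA arrays and still above sham. Acss3, a propionyl-CoA and acetyl-CoA synthetase, rose by 2.35 ± 0.40 (adjusted p = 0.014), Fxyd3, a regulator of the sodium pump, by 1.74 ± 0.34 (adjusted p = 0.0257) and Ccdc3 by 1.997 ± 0.47 (adjusted p = 0.0461). Of these, Sncaip, Th and Cage1 were called with each 8-week array left out, while Slc22a4, Acss3, Fxyd3 and Ccdc3 were not called without sham replicate 2 or sham replicate 3 (0.0571 to 0.139). Of the 6 fits without 1 8-week array, Acss3 was called in 4, Slc22a4 in 3, Fxyd3 in 2 and Ccdc3 in 1. The Ccdc3 call also ended with the block within each time (0.0529).

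Genes that fell with small p-values included several of secretion and matrix. Fap, a serine protease of activated fibroblasts, read 13.36, 13.54 and 13.65 in OA against 14.36, 14.47 and 14.62 in sham, a small difference at a high level with no overlap (-0.96 ± 0.11, adjusted p = 0.00274). Clec11a, a secreted growth factor of bone-forming cells, read 9.85, 9.58 and 10.19 in OA against 11.20, 11.77 and 11.65 in sham (-1.67 ± 0.19, adjusted p = 0.00274), and its other probe set also fell, by 1.89 ± 0.26. Gpx7, an oxidative-folding peroxidase of the endoplasmic reticulum, differed by -1.002 ± 0.12 (adjusted p = 0.00453), and Srpx, a sushi-repeat secreted protein gene, by -1.57 ± 0.19 (adjusted p = 0.00454), both falls. Fam171a1 (-2.86 ± 0.29), the WNT pathway gene Ccdc88c (-1.84 ± 0.19) and Nrros (-2.01 ± 0.24), a partner of latent TGF-beta in myeloid cells, fell as well. These 7 genes were called with each 8-week array left out in turn. Rassf4 read 3.77, 3.80 and 5.67 in OA against 8.65, 8.95 and 9.46 in sham (-4.61 ± 0.47, adjusted p = 0.00145). OA replicates 1 and 2 lay under log2 4, and the difference was -5.24 without OA replicate 3. It too was called with each 8-week array left out, and with the muscle covariate (0.0328). Its dimmer probe set differed by -2.41 ± 0.49.

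Larger falls, from sham means above log2 8, were seen in Pamr1 (-2.87 ± 0.51, adjusted p = 0.0173), a secreted protein of muscle regeneration, in Gpnmb (-2.61 ± 0.44, adjusted p = 0.0141), a glycoprotein of macrophages, osteoclasts and osteoblasts, and in Syt8 (-2.59 ± 0.57, adjusted p = 0.0375), a synaptotagmin. Gpnmb read 10.10, 9.62 and 10.12 in OA against 11.73, 12.68 and 13.25 in sham; the OA arrays were close together and all lay below the lowest sham array. The Syt8 difference was -1.82 without OA replicate 2 and -3.32 without OA replicate 3. None of these 3 was called without sham replicate 2 or sham replicate 3 (0.0535 to 0.139). Of the 6 fits without 1 8-week array, Pamr1 was called in 4, Gpnmb in 3 and Syt8 in 2. At lower levels, Nt5dc2 read 2.77, 2.85 and 3.19 in OA against 4.96, 6.93 and 6.77 in sham (adjusted p = 0.00523). Pstpip1 read 2.52, 3.90 and 3.52 in OA against 5.09, 4.97 and 5.51 in sham (adjusted p = 0.0105). The OA arrays of both lay under log2 4.

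Ligand and receptor genes gave a mixed picture. Of 10 measured genes of the EGF family and its sheddases 2 rose and 0 fell, against 1.05% and 2.55% of all genes. The median difference was 0.18. The 2 were Tgfa and Adam17, the protease that releases EGF receptor ligands from the cell surface. Adam17 read 11.78, 12.06 and 12.25 in OA against 11.00, 10.96 and 11.21 in sham, without overlap (0.97 ± 0.14, adjusted p = 0.00871). Of the other ligands, Egf differed by 0.81 ± 0.21 (adjusted p = 0.0636) and Hbegf by -1.04 ± 0.31 (adjusted p = 0.0936), and neither passed. The receptor gene Egfr differed by -0.20 ± 0.46 (adjusted p = 0.848), with overlapping groups. A single call was left with the muscle covariate, Tgfa, and 3 rises were called without OA replicate 3 or sham replicate 1.

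The insulin-like growth factor system showed 1 rise and 3 falls in 17 measured genes, against 1.05% and 2.55% of all genes (median -0.38). Igf2, a growth factor of fetal and repair tissue, read 8.27, 7.45 and 8.83 in OA against 11.67, 10.62 and 10.65 in sham, with every OA array more than 1 unit below the lowest sham array (-2.79 ± 0.57, adjusted p = 0.0294). Igfbp5, a binding protein that holds IGF in the matrix, read 11.66, 10.99 and 11.07 in OA against 12.13, 12.41 and 12.17 in sham (-0.996 ± 0.18, adjusted p = 0.0173). Grb10, an adaptor that dampens insulin and IGF receptor signals, fell by a small step (-0.50 ± 0.11, adjusted p = 0.0389), and Stc2, an inhibitor of IGF-releasing proteolysis, rose (1.24 ± 0.26, adjusted p = 0.0336). The Stc2 call ended with the block within each time (0.0504). The 4 calls of the list fell to 0 without OA replicate 2, sham replicate 2 or sham replicate 3 and with the muscle covariate, to 2 without OA replicate 1 and to 1 without sham replicate 1.

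Of 43 genes of TGF-beta, activin and BMP signalling 1 rose, Inhba, the activin A subunit: it read 14.07, 14.36 and 14.84 in OA against 13.34, 13.44 and 13.21 in sham (1.09 ± 0.20, adjusted p = 0.0178; 0.0535 to 0.0811 without OA replicate 2, sham replicate 2 or sham replicate 3). Id1, a target of BMP signals, differed by -0.90 ± 0.22 (adjusted p = 0.0532) and the BMP receptor gene Bmpr1a by -0.55 ± 0.13 (adjusted p = 0.0553), both without overlap and without passing. The list median was -0.027, near that of all genes. Without OA replicate 1 the list held 2 rises and 1 fall, without sham replicate 1 it held 2 rises and 3 falls, and without OA replicate 2, sham replicate 2 or sham replicate 3 it held 0 calls. With the replicate block 1 rose and 2 fell, and with the block within each time 2 rose and 3 fell.

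Among 10 Notch genes Hey1, a transcriptional repressor induced by Notch, read 6.26, 6.27 and 5.61 in OA against 9.56, 8.36 and 9.22 in sham, a fall of 7.97-fold with no overlap (-2.995 ± 0.39, adjusted p = 0.00523). Maml2, a Notch coactivator, rose by 0.59 ± 0.13 (adjusted p = 0.0423), a call that was lost without any of the 8-week arrays except sham replicate 1 (0.0517 to 0.157). Hey2, the sister gene of Hey1, differed by 1.11 ± 0.36 in the opposite direction and did not pass (adjusted p = 0.113). Hey1 was called with each 8-week array left out and with the muscle covariate (0.0328).

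Of 52 genes of hypoxia and glycolysis 8 rose and 0 fell, against 1.05% of all genes that rose. In 14 of the list (26.9%) OA lay above sham in every array and in 4 (7.69%) below, against 10.1% and 15.8% of all genes. The list median was 0.098. Egln3, a prolyl hydroxylase that marks HIF for destruction and is itself induced by HIF, read 12.32, 12.53 and 12.76 in OA against 10.62, 11.57 and 11.03 in sham (1.46 ± 0.25, adjusted p = 0.016). Ero1a, the oxidase that makes disulfide bonds in the endoplasmic reticulum, read 11.79, 11.99 and 12.15 in OA against 10.97, 11.47 and 11.27 in sham (0.74 ± 0.15, adjusted p = 0.029). The groups did not overlap in either gene, and sham replicate 1 was the lowest array of both.

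Mxi1, a repressor of MYC targets, rose by 0.67 ± 0.14 (adjusted p = 0.031), Vegfa, the angiogenic factor, by 0.57 ± 0.12 (adjusted p = 0.0374), Ndrg1, a stress-response gene, by 0.92 ± 0.20 (adjusted p = 0.0389), and Stc2 stands in this list too. The other 2, Gbe1, the glycogen branching enzyme (0.42 ± 0.09, adjusted p = 0.0389), and Pfkfb4, a regulator of glycolytic flux (0.72 ± 0.17, adjusted p = 0.0469), fall outside the rule for named genes and were named after their values were seen. The differences were thus under 2-fold except for Egln3 and Stc2. The count of 8 was 0 without OA replicate 2 and 0 without sham replicate 3, 2 without OA replicate 3 or sham replicate 2, 5 without OA replicate 1 or sham replicate 1, and 2 with the muscle covariate. The Ndrg1 call ended with the replicate block (0.0554) and those of Gbe1 and Stc2 with the block within each time (0.0515 and 0.0504).

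The core of the HIF binding motif, ACGTG on either strand, was searched in the 250 bases before the RefSeq start of each gene (build GRCr8), where it occurs in 16.9% of 27457 promoters and 23.2% of the 7523 measured genes with one. It was found in 25 of 47 list members with a promoter entry. Of the 8 genes that rose, Mxi1 and Gbe1 held 1 match each, Egln3, Stc2, Vegfa and Pfkfb4 held 0, and Ero1a and Ndrg1 have no entry. The E-box CACGTG contains the motif and was found in 8.49% of promoters of measured genes. A match is a description of these letters and not a site. The stretches with the match in capitals are printed for both genes to show where it lies, 250 to 151 bases before the start of Mxi1 (chr1:262348392-262348491, plus strand) and 100 to 1 bases before that of Gbe1 (chr11:22181176-22181275, plus strand).
Mxi1: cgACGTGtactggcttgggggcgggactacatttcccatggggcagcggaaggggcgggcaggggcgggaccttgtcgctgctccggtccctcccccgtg
Gbe1: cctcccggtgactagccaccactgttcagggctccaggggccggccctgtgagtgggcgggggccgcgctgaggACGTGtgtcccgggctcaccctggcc

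Nuclear receptors and their cofactors had the highest list median of the functional lists with 10 or more measured genes, 0.26 over 22 genes. Of these 3 rose and 0 fell, against 1.05% and 2.55% of all genes. In 10 of the 22 (45.5%) OA lay above sham in every array against 10.1% of all genes. Nr4a2, an orphan receptor and immediate early gene, read 8.79, 9.56 and 8.07 in OA against 6.44, 6.49 and 6.06 in sham (2.48 ± 0.36, adjusted p = 0.00822), and Nr3c2, the mineralocorticoid receptor, read 7.78, 6.79 and 6.64 in OA against 4.09, 4.63 and 5.13 in sham (2.45 ± 0.36, adjusted p = 0.00869). The OA arrays of both genes spread over more than 1 unit and still lay above all sham arrays. Nr1d2, the clock repressor REV-ERB beta, rose by 0.85 ± 0.20 (adjusted p = 0.047; 0.0634 with the replicate block), while the opposing clock receptor Rora differed by -0.43 ± 0.11 (adjusted p = 0.0526). The count was 2 without OA replicate 2, sham replicate 2 or sham replicate 3, 5 with the block within each time and 0 with the muscle covariate.

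Of 20 circadian clock genes 2 rose, against 1.05% of all genes. They were Nr1d2 and Per3, a core repressor of the clock, which read 7.64, 7.84 and 7.73 in OA against 6.49, 6.63 and 6.17 in sham (1.31 ± 0.24, adjusted p = 0.0205). Per1 (0.70 ± 0.20, adjusted p = 0.0879), Per2 (0.77 ± 0.41, adjusted p = 0.304) and the activator gene Bmal1 (-0.53 ± 0.25, adjusted p = 0.248) did not pass. The hour at which the tissue was taken is not given in the sources used here. Without OA replicate 2, sham replicate 2 or sham replicate 3 and with the muscle covariate 0 clock genes were called, 1 without OA replicate 3 or with the replicate block, and 3 without OA replicate 1.

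The secretory pathway was lower in OA over many genes by small amounts. Of 69 genes of endoplasmic reticulum folding and secretion 60 differed below 0 and 39 had every OA array below every sham array, against 15.8% of all genes, and the median was -0.24. In this list 6 fell and 0 rose, against 2.55% of all genes that fell. Sec13, a coat protein of the vesicles that leave the endoplasmic reticulum, read 12.62, 12.82 and 12.78 in OA against 13.33, 13.47 and 13.49 in sham (-0.69 ± 0.09, adjusted p = 0.00564), and Manf, a chaperone-like stress factor, read 12.17, 12.25 and 12.25 in OA against 12.74, 12.66 and 12.68 in sham (-0.47 ± 0.09, adjusted p = 0.0261). Both groups were narrow, so that steps of less than 2-fold did not overlap.

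Kdelr2, the receptor that returns chaperones to the endoplasmic reticulum, differed by -0.62 ± 0.14 (adjusted p = 0.0408), the translocon subunit Ssr4 by -0.40 ± 0.09 (adjusted p = 0.0432), the channel Sec61a1 by -0.79 ± 0.18 (adjusted p = 0.0439) and the cargo receptor Lman1 by -0.77 ± 0.18 (adjusted p = 0.0469). With the replicate block the p of Ssr4, Sec61a1 and Lman1 was 0.0545, 0.0637 and 0.0526, and that of Lman1 was 0.0532 with the block within each time. Only Sec13 was called with each 8-week array left out. The list held 1 call without OA replicate 1, sham replicate 2 or sham replicate 3, 2 without OA replicate 2, 10 without OA replicate 3 and 0 with the muscle covariate.

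Of 25 genes that modify, fold and crosslink collagen 6 fell, against 2.55% of all genes, and 19 were not called. In this list 23 differed below 0 and 17 had OA below sham in every array (68% against 15.8% of all genes), with a median of -0.26. Sec13 is among the 6 and with 3 further genes also stands in the secretion list. Bmp1, the protease that removes the C-propeptide of procollagen, read 8.72, 8.99 and 9.18 in OA against 9.93, 9.97 and 10.14 in sham (-1.05 ± 0.18, adjusted p = 0.0148), and its enhancer Pcolce read 12.03, 12.17 and 12.39 in OA against 12.62, 13.28 and 13.13 in sham (-0.81 ± 0.17, adjusted p = 0.0334). In both genes the lowest sham array lay above the highest OA array. Serpinh1, the collagen chaperone, differed by -0.54 ± 0.11 (adjusted p = 0.0257), the collagen galactosyltransferase gene Colgalt1 by -0.65 ± 0.14 (adjusted p = 0.0347) and the crosslinking oxidase gene Loxl3 by -0.85 ± 0.18 (adjusted p = 0.0359). Without OA replicate 1 or OA replicate 2 the list held 2 calls, without sham replicate 2 or sham replicate 3 it held 1, and with the muscle covariate 0.

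The matrix proteins that pass through this machinery fell in part. Among 19 chondrocyte markers 3 fell, against 2.55% of all genes. They were the type IX collagen chains Col9a1 (-0.48 ± 0.10), Col9a2 (-1.04 ± 0.20) and Col9a3 (-0.60 ± 0.10). Col9a3 read 14.36, 14.30 and 14.45 in OA against 15.01, 14.94 and 14.95 in sham. The Col9a1 call ended with the block within each time (0.0529), and the list held 1 rise and 1 fall without OA replicate 1, 2 falls without sham replicate 1, 1 fall without sham replicate 2, and none without OA replicate 2 or sham replicate 3 or with the muscle covariate. Comp, a pentameric linker of collagen fibrils, read 15.54, 15.49 and 15.59 in OA against 15.55, 15.56 and 15.49 in sham, with overlapping groups (0.01 ± 0.09, adjusted p = 0.979). Acan, the aggrecan gene, differed by 0.22 ± 0.11 (adjusted p = 0.272), also with overlapping groups.

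Of 12 small leucine-rich proteoglycans 2 fell, against 2.55% of all genes. They were Tsku, a secreted antagonist of several growth factors (-0.95 ± 0.20, adjusted p = 0.0306, and 0.0524 with the block within each time), and biglycan, Bgn (-0.52 ± 0.11, adjusted p = 0.0356). Decorin, Dcn, pointed the other way and did not pass (0.56 ± 0.23, adjusted p = 0.201). Neither fall was called without OA replicate 2, sham replicate 2 or sham replicate 3 or with the muscle covariate, and 1 was without sham replicate 1.

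Among 54 genes of fibrous, basement membrane and repair matrix 2 rose and 4 fell, against 1.05% and 2.55% of all genes. The list median was -0.42. Lamb3, a laminin chain of epithelial basement membranes, read 7.28, 7.36 and 8.40 in OA against 5.70, 5.29 and 5.17 in sham (2.29 ± 0.44, adjusted p = 0.0247), and Col8a1, a short-chain collagen, rose by 1.02 ± 0.21 (adjusted p = 0.0326). Besides Mfap2, the WNT-induced matricellular gene Ccn4 (-1.39 ± 0.22, adjusted p = 0.0123), Col16a1 (-0.69 ± 0.12, adjusted p = 0.016) and Col6a1 (-0.44 ± 0.10, adjusted p = 0.048) fell. The Col6a1 call ended with both forms of the block (0.0516 and 0.0565). The 6 calls of the list came to 3 without OA replicate 2 or sham replicate 2 and to 1 without sham replicate 3 or with the muscle covariate.

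Of 35 genes of serine synthesis, the amino acid response and amino acid transport 5 fell and 0 rose, against 2.55% of all genes that fell, and 16 had OA below sham in every array (45.7% against 15.8% of all genes; median -0.22). Phgdh, the first enzyme of serine synthesis, read 4.22, 4.98 and 4.99 in OA against 6.77, 6.93 and 8.15 in sham (-2.55 ± 0.43, adjusted p = 0.014), and Psat1, the next enzyme of the route, read 7.16, 8.47 and 7.49 in OA against 9.43, 9.41 and 10.02 in sham (-1.92 ± 0.45, adjusted p = 0.0457). The sham arrays of both lay above all OA arrays. Mthfd2, which uses serine carbon in mitochondrial folate metabolism, fell as well (-1.08 ± 0.24, adjusted p = 0.0389).

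Slc3a2, the heavy chain of several amino acid exchangers, differed by -0.71 ± 0.16 (adjusted p = 0.0408) and Aldh18a1, an enzyme of proline synthesis, by -0.64 ± 0.15 (adjusted p = 0.0479). Slc1a5, a glutamine transporter, differed by -0.74 ± 0.18 and did not pass (adjusted p = 0.0508). With the replicate block Psat1, Slc3a2 and Mthfd2 were not called (0.054, 0.0619 and 0.0584), nor was Mthfd2 with the block within each time (0.0615). Falls called in the list numbered 2 without OA replicate 1, 3 without OA replicate 2, 1 without sham replicate 2 and 0 without sham replicate 3 or with the muscle covariate.

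Of the lysosomal genes 31 of 38 differed below 0, 18 had OA below sham in every array (47.4% against 15.8% of all genes) and 7 fell, against 2.55% of all genes (median -0.35). Ctsz, a carboxypeptidase of the cathepsin family, read 5.18, 5.05 and 6.17 in OA against 8.72, 9.18 and 9.92 in sham (-3.81 ± 0.34, adjusted p = 0.000631), and Arsb, which removes sulfate from chondroitin, read 9.47, 10.31 and 10.18 in OA against 11.75, 11.87 and 11.90 in sham (-1.85 ± 0.23, adjusted p = 0.00454). The groups lay more than 1 unit apart in both genes, and the dimmer Arsb probe set fell by 2.53 ± 0.35. Ctsk, the collagen-cleaving cathepsin of osteoclasts, read 13.19, 13.55 and 13.85 in OA against 14.77, 14.80 and 14.94 in sham (-1.31 ± 0.16, adjusted p = 0.00454), and Gusb, beta-glucuronidase, fell in small steps (-0.64 ± 0.10, adjusted p = 0.0103).

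Cd68 and Laptm5 (-2.54 ± 0.32), which also stand in the macrophage list, fell, and the seventh was Gm2a, the GM2 ganglioside activator (-1.02 ± 0.22, adjusted p = 0.0359), named after its value was seen, whose call ended with the replicate block (0.0521). The lists of macrophage and osteoclast markers were lower in the same arrays, with mean levels of 6.63 to 7.15 in OA and 8.01 to 10.55 in sham for macrophages and 8.66 to 9.52 against 10.46 to 10.81 for osteoclasts. Their part in the lysosomal difference was not tested. In whole tissue, fewer cells of a type and less RNA per cell cannot be told apart. The 7 calls came to 11 without sham replicate 1 and to 5 to 7 with any other 8-week array left out, and to 3 with the muscle covariate.

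Of 18 subunits of the vacuolar proton pump 1 rose and 3 fell, against 1.05% and 2.55% of all genes. The pump acidifies lysosomes and the space under osteoclasts. Atp6v0a4, a tissue-restricted subunit, read 10.38, 10.93 and 10.06 in OA against 9.36, 8.68 and 9.01 in sham, opposite in direction to most of the list (1.44 ± 0.24, adjusted p = 0.0135). Atp6v1b2 (-0.73 ± 0.15, adjusted p = 0.0325), the osteoclast-type subunit Tcirg1 (-0.85 ± 0.18, adjusted p = 0.0347) and Atp6v0b (-0.49 ± 0.11, adjusted p = 0.0381; 0.0571 with the block within each time) fell, and 9 subunits (50%) had OA below sham in every array against 15.8% of all genes. Without OA replicate 1 or OA replicate 2 the rise alone was called, and without sham replicate 2 or sham replicate 3, or with the muscle covariate, 0 subunits were.

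Among 36 genes of lipid transfer, efflux and storage 1 rose and 3 fell, against 1.05% and 2.55% of all genes. G0s2, an inhibitor of the main triglyceride lipase, read 12.73, 11.46 and 11.79 in OA against 9.90, 9.53 and 9.18 in sham (2.46 ± 0.32, adjusted p = 0.00523). Abcg1, Pltp and Angptl2 fell. Pltp, a phospholipid transfer protein, read 6.24, 5.10 and 5.06 in OA against 8.88, 10.74 and 11.63 in sham, with sham replicate 1 the lowest of the sham arrays and still above OA (-4.95 ± 0.84, adjusted p = 0.0148). Its difference was -5.72 without that array and -4.34 without sham replicate 3, which ended the call (0.0671). Angptl2, a secreted inflammatory glycoprotein, differed by -0.94 ± 0.20 (adjusted p = 0.0328). Apoe, carrier of cholesterol and abundant in macrophages, read 10.12, 8.33 and 9.21 in OA against 10.52, 12.65 and 13.04 in sham, without overlap and without passing (adjusted p = 0.0691). Falls called in the list were 1 without OA replicate 2, sham replicate 2 or sham replicate 3 and 5 without sham replicate 1, and the only call with the muscle covariate was 1 fall.

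Of 24 matrix metalloproteinases, TIMPs and ADAMTS proteases 2 rose (Mmp3 and Adam17) and 4 fell, against 1.05% and 2.55% of all genes. Mmp9, a gelatinase of osteoclasts, read 8.62, 10.33 and 10.59 in OA against 13.12, 13.46 and 13.82 in sham (-3.62 ± 0.45, adjusted p = 0.00454), and the difference was -3.003 without OA replicate 1. Its dimmer probe set fell too, with an OA mean of 3.93, under log2 4, against 10.19 in sham. Mmp13, the main collagenase of cartilage, read 10.66, 12.56 and 12.58 in OA against 13.92, 14.80 and 14.59 in sham, a wide OA group with replicate 1 far below the others (-2.51 ± 0.46, adjusted p = 0.0202). The Mmp13 difference was -1.87 without OA replicate 1, and its call ended without sham replicate 2 (0.0778) or sham replicate 3 (0.0843) and with the muscle covariate (0.197). Mmp23, a membrane-bound member, fell from a sham mean of 6.66 to an OA mean of 4.13 (adjusted p = 0.0148). Adamts9, a versicanase, read 2.43, 2.55 and 2.48 in OA against 4.18, 4.89 and 5.92 in sham, with all OA arrays under log2 4 (adjusted p = 0.0148).

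The aggrecanase genes Adamts4 (-0.71 ± 0.54, adjusted p = 0.488) and Adamts5 (-0.16 ± 0.50, adjusted p = 0.894) overlapped between the groups and did not pass. The same held for the inhibitors Timp1 (0.27 ± 0.39, adjusted p = 0.75) and Timp3 (0.30 ± 0.20, adjusted p = 0.42). In Timp1 and Adamts4 replicate 1 was the lowest array of both groups. The 6 calls of the list came to 4 without sham replicate 2 and to 3 without sham replicate 3, and to 2 with the muscle covariate.

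Adhesion and guidance genes changed in single members. Of 23 integrins and their partners Itga8 rose and Itgb3, the beta chain of the osteoclast vitronectin receptor, fell. Of all genes 1.05% rose and 2.55% fell. Itgb3 read 6.04, 8.06 and 8.07 in OA against 10.87, 10.60 and 11.07 in sham, with OA replicate 1 the lowest array (-3.46 ± 0.48, adjusted p = 0.00678; -2.78 without that array). Falls in the list numbered 3 without sham replicate 1 or with the block within each time, 2 without OA replicate 3 and 0 with the muscle covariate. Of 16 cadherins, claudins and connexins 3 fell, against 2.55% of all genes. Cdh2, N-cadherin, read 3.69, 3.83 and 3.63 in OA against 7.25, 5.59 and 7.39 in sham, with OA under log2 4 (adjusted p = 0.0178). Cldn11, a tight junction protein of myelin and testis, differed by -4.10 ± 0.79 (adjusted p = 0.0235; -3.40 without OA replicate 2) and the junction molecule Jam2 by -0.75 ± 0.18 (adjusted p = 0.0461). None of these 3 was called without OA replicate 2 or sham replicate 3 or with the muscle covariate, and 1 was called without sham replicate 2.

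Of 25 axon guidance and neurotrophin genes Sema6d, a transmembrane semaphorin, read 9.41, 8.46 and 8.35 in OA against 10.43, 10.27 and 10.33 in sham, without overlap (-1.60 ± 0.28, adjusted p = 0.016). Nrp1, a coreceptor of semaphorins and VEGF, read 10.42, 10.25 and 9.67 in OA against 10.93, 11.72 and 11.36 in sham (-1.22 ± 0.24, adjusted p = 0.0289). Both fell, where 2.55% of all genes did, and 7 genes of the list (28%) had OA below sham in every array against 15.8% of all genes. Neither was called without OA replicate 2, sham replicate 2 or sham replicate 3. The list held 0 falls without either of those sham arrays, 1 without OA replicate 3 or with the muscle covariate, and 3 without OA replicate 1 or sham replicate 1. Of 36 ion channels and pumps 3 fell, against 2.55% of all genes. Slc12a2, the chloride cotransporter that sets cell volume, read 12.31, 12.35 and 12.26 in OA against 12.91, 12.88 and 12.84 in sham (-0.57 ± 0.09, adjusted p = 0.0113). The sodium pump subunit Atp1b1 differed by -1.19 ± 0.19 (adjusted p = 0.0119) and the potassium channel subunit Kcne4 by -0.88 ± 0.18 (adjusted p = 0.0326). With 1 array left out the list held 1 to 5 falls and up to 2 rises, with the block within each time 3 rises and 4 falls, and with the muscle covariate 0 calls.

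Of 61 genes of the cell cycle and DNA replication 52 differed below 0, with a median of -0.62. In this list 4 fell (6.56%), against 2.55% of all genes. In 11 (18%) OA lay below sham in every array against 15.8% of all genes, so that this share was near the background. Cdkn1c, an inhibitor of cyclin-dependent kinases and so a brake on the cycle, read 12.69, 13.35 and 12.86 in OA against 13.82, 14.33 and 14.13 in sham (-1.12 ± 0.18, adjusted p = 0.0117). The other 3 were Ccnd3, a D-type cyclin (-0.78 ± 0.14, adjusted p = 0.0178), Cdca7, a chromatin protein of S phase (-0.73 ± 0.14, adjusted p = 0.0232), and Mcm6, a helicase subunit (-0.90 ± 0.21, adjusted p = 0.0455). Melk, a mitotic kinase, read 5.79, 6.92 and 7.86 in OA against 8.02, 9.37 and 9.60 in sham, with replicate 1 the lowest array of both groups, and did not pass (adjusted p = 0.0697).

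This list depended most on sham replicate 1 and on the pairing. Without that array 21 genes fell, and 23 did with a block within each time. Without OA replicate 3 the falls were 8, with 3 without OA replicate 1, 1 without OA replicate 2 and 0 without sham replicate 2, without sham replicate 3 or with the muscle covariate.

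Markers of other cell types differed between the groups, as the plot of marker lists by array shows. All 17 measured macrophage markers differed below 0 and 5 fell, against 2.55% of all genes (median -2.54). No array of OA reached the lowest sham array in the mean level of the list. Csf1r, the receptor that macrophages and osteoclasts need to survive, read 6.33, 6.85 and 6.70 in OA against 7.93, 8.77 and 8.96 in sham (-1.93 ± 0.27, adjusted p = 0.0073), and Cd74, the invariant chain of antigen presentation, read 7.89, 5.56 and 6.86 in OA against 8.68, 10.96 and 10.82 in sham (-3.38 ± 0.71, adjusted p = 0.0328; 0.0521 with the block and 0.0626 within each time). Its difference was -2.78 without OA replicate 2 and -4.12 without sham replicate 1. Macrophage falls numbered 13 without sham replicate 1, 8 with the block within each time, 3 without OA replicate 2, sham replicate 2 or sham replicate 3, and 1 with the muscle covariate. Of 13 genes of MHC class II and antigen presentation Cd74 was the 1 that fell and 12 differed below 0 (median -1.68), with 6 falls without sham replicate 1 and 0 without OA replicate 2, OA replicate 3, sham replicate 2 or sham replicate 3. Of 13 chemokines and receptors Ccl2, a monocyte attractant, had the largest difference. It read 11.98, 12.46 and 11.99 in OA against 4.18, 8.61 and 10.51 in sham, without overlap, and did not pass (4.38 ± 1.30, adjusted p = 0.0944). The list held 1 fall, the receptor Cxcr4 (-2.20 ± 0.47, adjusted p = 0.0336; 0.0536 with the block within each time, and 0.072 to 0.134 without OA replicate 2, OA replicate 3, sham replicate 2 or sham replicate 3).

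Of 9 osteoclast markers 5 fell, against 2.55% of all genes (median -0.85). Among them the acid phosphatase Acp5 read 10.83, 12.37 and 12.35 in OA against 14.12, 14.31 and 14.70 in sham (-2.53 ± 0.36, adjusted p = 0.00785). Osteoclast counts came to 4 or 5 with any 8-week array left out and to 1 with the covariate. Of 14 osteoblast and osteocyte markers 3 fell, against 2.55% of all genes (median -1.07). They were Phex, the matrix phosphoprotein gene Dmp1 (-2.22 ± 0.39, adjusted p = 0.0173) and the sphingomyelinase gene Smpd3 (-1.13 ± 0.23, adjusted p = 0.0301). The mean level of the 14 markers was 9.92 to 10.53 in OA and 11.07 to 11.27 in sham. The count was 2 without OA replicate 2 or sham replicate 2, 0 without sham replicate 3 or with the covariate, and 5 with the block within each time.

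Gfap, a glial filament gene, read 4.52, 5.76 and 6.97 in OA against 10.17, 9.93 and 10.10 in sham (-4.32 ± 0.46, adjusted p = 0.00211). Its difference was -3.70 without OA replicate 1 and -4.93 without OA replicate 3. With Cldn11 it made 2 falls among 5 nerve and Schwann cell markers, against 2.55% of all genes. Of the 5 markers 3 differed below 0 and 2 above, with a median of -0.34. That list held 1 fall without OA replicate 2, sham replicate 2 or sham replicate 3. Fap was the 1 fall of 9 synovial fibroblast and tendon markers and Cfd, complement factor D, the 1 fall of 6 adipocyte markers, with 1.78, 1.77 and 1.73 in OA against 6.03, 5.29 and 7.55 in sham, the OA arrays under log2 4. In contrast, 21 of 22 skeletal muscle markers differed above 0 (median 3.76) and 0 were called by limma, with 11 at an unadjusted p under 0.05. The count was 7 with the block within each time, 4 with the replicate block, 5 without sham replicate 1 and 1 without OA replicate 3. By limma 0 were called of 9 endothelial, 5 erythroid, 5 neutrophil and marrow granule, 8 smooth muscle and pericyte and 2 T and B cell markers, of which 4 endothelial and 2 erythroid markers had an unadjusted p under 0.05, and 0 of 9 mast cell markers with a probe set passed the filter. The part of these cell types in the differences of other genes was not tested. The fit with the muscle level cannot decide it for muscle, since that level was 14.29, 10.72 and 9.36 in OA against 10.09, 5.76 and 7.54 in sham. The covariate thus shares part of the difference between the groups.

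**Figure D3:**
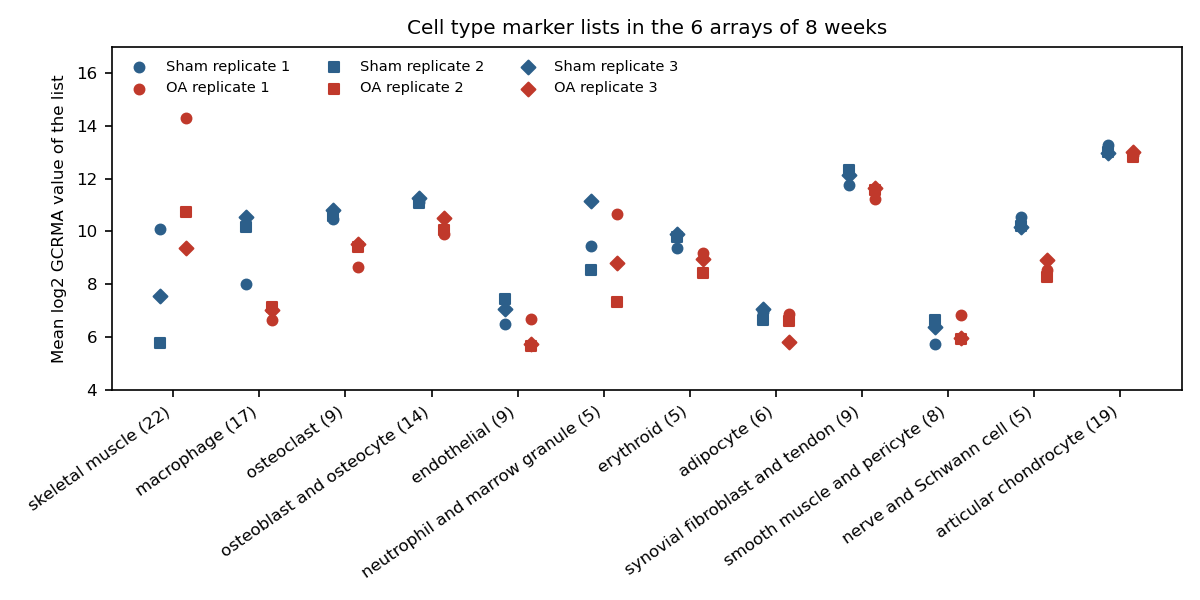
Mean log2 GCRMA value of each cell type marker list (y axis; number of measured markers in brackets) in the 3 sham arrays (blue) and 3 OA arrays (red) of 8 weeks, 1 symbol shape per replicate number. The mean levels of the macrophage, osteoclast, osteoblast, nerve and Schwann cell, synovial fibroblast and tendon, and erythroid lists are lower in every OA array than in every sham array. In that order 0 of 17, 1 of 9, 2 of 14, 2 of 5, 3 of 9 and 0 of 5 members differed above 0. The muscle list is highest in OA replicate 1 at 14.29, and the chondrocyte list stays between 12.83 and 13.29.

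Other signalling and stress lists held 1 call each. Of 35 immediate early genes 1 rose, Nr4a2 again, while 25.7% of the list had OA above sham in every array against 10.1% of all genes (median 0.13). The list held 4 rises without OA replicate 1, 3 rises and 2 falls without sham replicate 1, and 5 rises and 1 fall with the block within each time. Of 15 targets and feedback inhibitors of ERK the receptor tyrosine kinase inhibitor Spry2 rose (1.02 ± 0.23, adjusted p = 0.0426; 0.0588 with the replicate block), and of 31 NF-kB targets and cytokines Nfkbiz, a nuclear modulator of NF-kB, rose (1.51 ± 0.29, adjusted p = 0.0239). Spry2 was not called with any of the 6 arrays left out (0.0509 to 0.134), nor Nfkbiz without OA replicate 2, sham replicate 2 or sham replicate 3 (0.0676 to 0.0847).

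Falls of 1 gene each were seen among 50 antioxidant genes (Gpx7), 23 WNT genes (Ccn4), 33 genes of sterol and fatty acid synthesis (Elovl1, an elongase of saturated fatty acids, -0.47 ± 0.10, adjusted p = 0.0347), 7 Hedgehog and PTHrP genes (Pth1r, the PTHrP receptor, -0.85 ± 0.18, adjusted p = 0.0366) and 21 genes of the superficial zone (Igfbp5). The calls of Elovl1 and Pth1r ended without OA replicate 1, OA replicate 2, sham replicate 2 or sham replicate 3 and with the muscle covariate, and that of Pth1r also without sham replicate 1 (0.062). The antioxidant list held 4 falls without sham replicate 1, 2 with either block, with 1 rise within each time, and 0 with the muscle covariate. WNT genes numbered 2 falls with either block and 0 without sham replicate 3 or with the covariate, and the superficial zone list held 0 calls without OA replicate 2, sham replicate 2 or sham replicate 3 or with the covariate, 2 falls without OA replicate 1, 1 rise and 2 falls without sham replicate 1 and 2 of each within each time. Sterol genes held 2 falls without OA replicate 3 and 1 rise and 1 fall without sham replicate 1 or with the block within each time, which also gave the Hedgehog list 1 rise. Of 28 genes of hypertrophy and mineralization 1 rose, Vegfa, and 4 fell, Mmp13, Dmp1, Smpd3 and Pth1r (median -0.13). Of all genes 1.05% rose and 2.55% fell. The textbook gene Col10a1 differed by -0.07 ± 0.12 (adjusted p = 0.763), with overlapping groups. Without OA replicate 2 and without sham replicate 1 that list held 2 falls, without sham replicate 2 it held 1, and without sham replicate 3 or with the muscle covariate 0.

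Several systems held no called gene in these arrays. The 26 genes of glycosaminoglycan synthesis and sulfation (median -0.078), 52 of oxidative phosphorylation (0.024), 42 of autophagy (-0.0079), 29 of apoptosis and p53 targets (-0.11), 30 of heat shock (0.086), 25 of the interferon response (-0.097), 16 of YAP targets and mechanosensing (0.035) and 10 of FGF ligands and receptors (0.042) each held 0 calls by limma, where 3.6% of all genes were called. At an unadjusted p under 0.05 they held 5, 1, 4, 4, 6, 5, 3 and 1 genes in that order. Without sham replicate 1, 3 interferon response genes and 1 gene each of glycosaminoglycan synthesis and of apoptosis were called, all lower. With the block within each time 1 rise and 1 fall were called in each of glycosaminoglycan synthesis and autophagy, and 1 rise in YAP targets, which also held 1 rise with the replicate block or without OA replicate 2. Without OA replicate 3, 1 fall each was called in YAP targets and glycosaminoglycan synthesis. With 3 arrays per group this does not show that they did not differ. In oxidative phosphorylation 0 genes had OA above sham in every array and 2 (3.85%) had it below, against 10.1% and 15.8% of all genes. The plot of gene lists sets these medians beside those of the lists above.

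**Figure D4:**
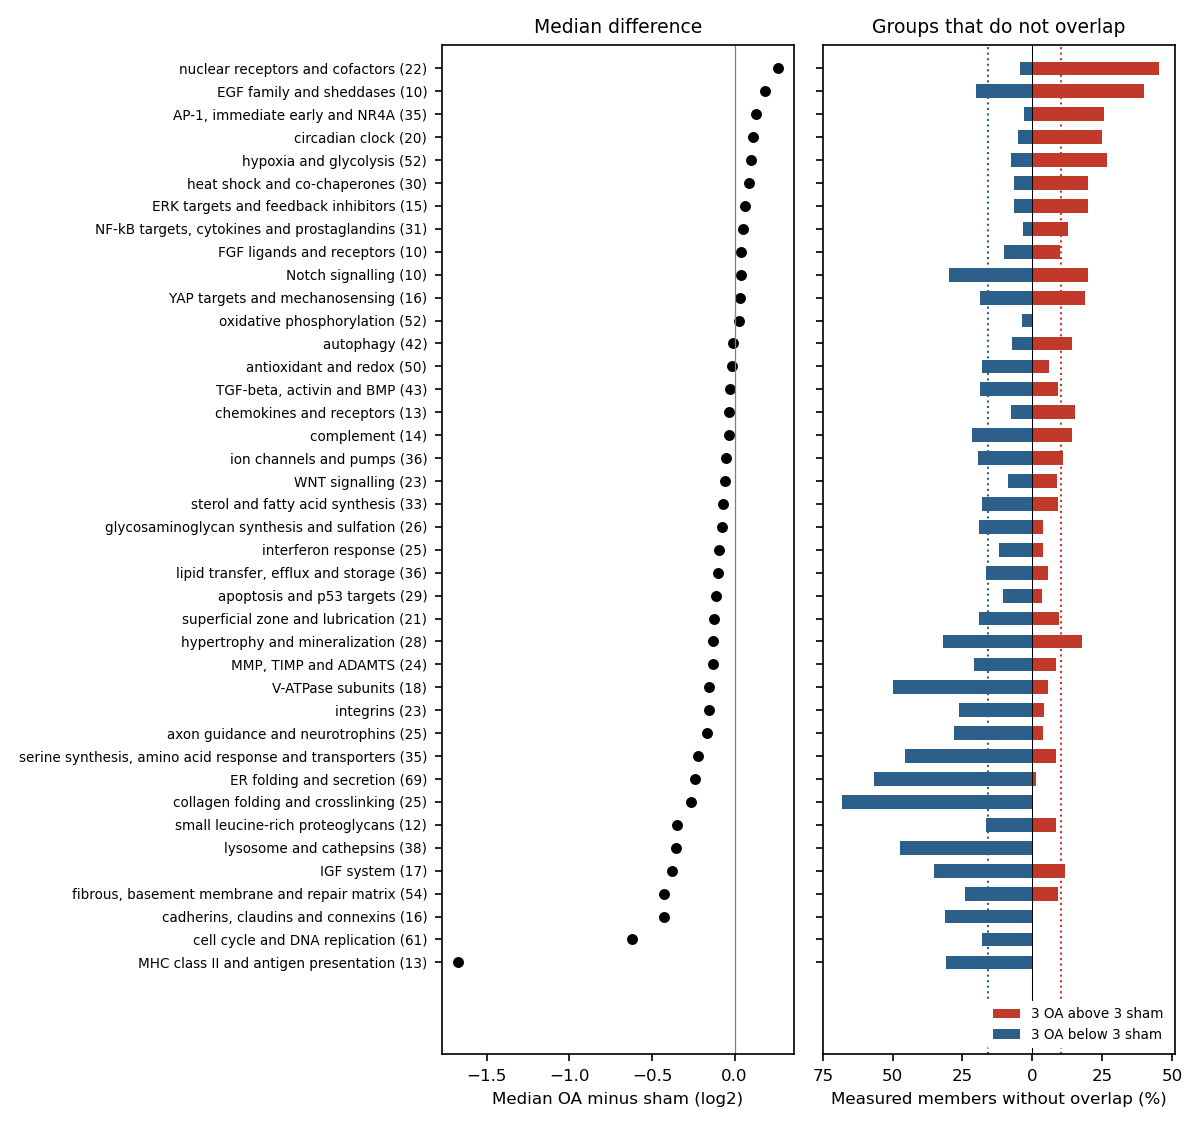
Left, median OA minus sham difference (log2) of each functional list with 10 or more measured genes (number in brackets). Right, share of measured members (%) whose 3 OA arrays lie all above (red, to the right) or all below (blue, to the left) the 3 sham arrays, with dotted lines at the shares among all genes, 10.1% and 15.8%; collagen folding and endoplasmic reticulum folding reach farthest to the left and nuclear receptors farthest to the right.

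At 2 weeks limma called 0 of the 15338 probe sets (0%), with 261 at an unadjusted p under 0.05, and 214 of the 323 genes had the sign they showed at 8 weeks. The difference between the times was tested directly: 23 probe sets (0.15%) and 15 genes (0.167%), all among the 323, had an OA effect at 8 weeks that differed from that at 2 weeks. Tgfa differed by 0.10 at 2 weeks, so its effects differed by 2.92 ± 0.21 (adjusted p = 0.000909), and Itga8 by -0.04 at 2 weeks (4.44 ± 0.41, adjusted p = 0.00335). Among the lower genes, Ctsz differed by -0.39 at 2 weeks (-3.42 ± 0.48, adjusted p = 0.0332) and Enc1 by 0.22 (-2.17 ± 0.21, adjusted p = 0.00335). For the other 308 genes a difference between the times was not shown. The count of 23 probe sets was 7 to 75 with 1 of the 12 arrays left out, and 72 with the block within each time.

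**Figure D5:**
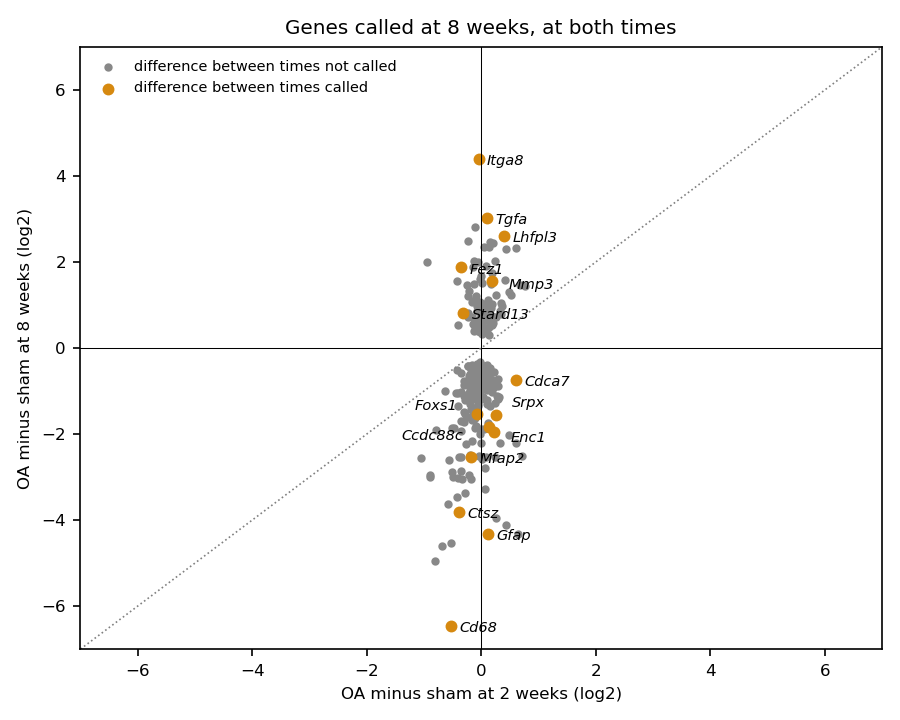
OA minus sham difference at 2 weeks (x axis, log2) and at 8 weeks (y axis, log2) of the 323 genes called at 8 weeks, with the 15 genes whose effect differed between the times in orange; the dotted line marks equal differences. The points spread along the y axis from -6.46 to 4.39 and stay near 0 on the x axis.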

How the data were processed

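The deposited values are log2 signals per probe set that the authors made with GCRMA, which corrects background, quantile-normalizes and summarizes probes, per the submitters' processing notes; its version is not stated in the sources used here. The 57 control probe sets were dropped and 15338 of the other probe sets kept (above log2 4 in 3 or more of the 6 arrays of 8 weeks). Platform annotation gave 20832 probe sets 1 gene symbol, 436 several and 9831 none. A gene took the probe set with the highest mean over the 6 arrays.

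Groups came from the titles. A linear model with 4 groups was fitted to all 12 arrays with limma 3.58.1 in R 4.3.3 (lmFit, eBayes), with Benjamini-Hochberg adjustment over all kept probe sets at 0.05; the difference between times was an interaction contrast. The steps were tested on simulated data. Counts were made with pandas 2.3.3 in Python 3.11.15, and figures with matplotlib 3.10.9.

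The members and gene lists were chosen with earlier results of these data known. Genes were named by fixed rules. Each way, these took the 14 smallest p-values with both group means above log2 4. They also took the 10 largest differences with a mean over the 6 arrays at or above log2 8. Up to 8 each way had a group mean at or under log2 4. Further rules took the genes called with 6 arrays, up to 8 each way with a changed effect between times, up to 6 per list, and textbook genes. Same-numbered OA and sham arrays deviated together (r of 0.256, 0.245 and 0.138 at 8 weeks and 0.313, 0.359 and 0.519 at 2 weeks). OA replicate 3 of 8 weeks, however, correlated slightly more with sham replicate 2 (0.159), and the titles give only replicate numbers. The main fit treated the arrays as unpaired. A possible pairing by number entered only in the alternative fits with a block.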

Additional observations from a re-analysis of the deposited data

Results flagged for a closer look

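The OA effect at 8 weeks differed from that at 2 weeks, by limma's interaction term with adjusted p under 0.05, in 15 genes, of which the 14 that follow were named by rule, each given as the 8-week effect minus the 2-week effect on the log2 scale. It was above 0 for Itga8 (4.44), Tgfa (2.92), Fez1 (2.23), Lhfpl3 (2.21), Mmp3 (1.39) and Stard13 (1.12). It was below 0 for Cd68 (-5.94), Gfap (-4.43), Ctsz (-3.42), Mfap2 (-2.35), Enc1 (-2.17), Ccdc88c (-1.97), Srpx (-1.82) and Foxs1 (-1.45), a forkhead factor gene whose OA arrays of 8 weeks were all under log2 4. The adjusted p of these 14 genes ran from 0.000909 for Tgfa to 0.0408 for Srpx. A changed effect does not say which group moved. The Mmp3 mean in OA was 14.91 at 2 weeks and 14.93 at 8 weeks, while in sham it was 14.73 and then 13.36. For Tgfa the OA mean was 10.95 and then 12.47, and the sham mean 10.85 and then 9.45.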

How the results depend on the processing

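Counts below are of called probe sets, then genes, then probe sets with a changed effect between the times, where the main values are 561, 323 and 23. With only the 6 arrays of 8 weeks there were 34 probe sets and 16 genes. The muscle level as covariate gave 62, 36 and 14, equal array medians 290, 170 and 15, quantile normalization 849, 507 and 40, array weights 1522, 865 and 134, and no filter 362 probe sets and 8 with a changed effect. Pairing was tested with the replicate number as a block, which gave 691 and 427, and as a block within each time, which gave 1124, 679 and 72. Beside the genes given with such a p, no named gene lost its call with either block. Calls gained with a block were counted per list and not followed gene by gene. Leaving out 1 array gave 105 to 902, 58 to 537 and 7 to 75. Leaving out both arrays of 8 weeks numbered 1, an alternative chosen after seeing the data, gave 125 probe sets with a changed effect. No called gene changed sign under any of these, and the share of called probe sets that were higher ran from 35.4% (without OA replicate 3) to 52.9% (6 arrays) around 44%. Values under log2 4 carry little signal over background, so 12 called genes have no exact size.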

Other observations

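Some gene families were chosen after their values were seen. Of 28 imprinted genes listed 12 were measured, 11 differed below 0 and 5 fell, with a median of -0.4472. H19, a noncoding RNA expressed from the maternal allele next to Igf2, read 13.71, 12.84 and 13.01 in OA against 14.58, 14.58 and 14.70 in sham (-1.43 ± 0.19, adjusted p = 0.00606). The other 4 that fell were Igf2, Cdkn1c, Grb10 and Ndn, a growth-suppressing MAGE protein gene (-0.89 ± 0.19, adjusted p = 0.0331). Of the 6 fits without 1 8-week array, H19 was called in 6, Cdkn1c in 4, Ndn in 2, and Igf2 and Grb10 in 1 each. Of 7 measured genes of the C1q and TNF related family of secreted proteins 3 fell, C1qtnf2 (-1.20 ± 0.16, adjusted p = 0.00523), C1qtnf5 (-1.56 ± 0.26, adjusted p = 0.0135) and C1qtnf6 (-1.55 ± 0.20, adjusted p = 0.00523). Of 4 olfactomedin-like genes Olfml2a (adjusted p = 0.0469; OA mean 3.98, under log2 4, against 5.83 in sham) and Olfml2b (-1.82 ± 0.41, adjusted p = 0.0432) fell. With the replicate block neither was called (0.0687 and 0.0523), nor was Olfml2a with the block within each time (0.0623), and of the 6 fits without 1 array Olfml2a was called in 1 and Olfml2b in 2. Of 6 SLC22 organic ion transporters Slc22a4 and Slc22a5 rose. Across all genes 3.6% were called, and since these families were picked for their values, their counts are a description only.

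Among the probe sets without a single gene symbol 14 were called with 12 and with 6 arrays, 8 higher and 6 lower. The probe set 1396441_at read 9.00, 9.04 and 8.72 in OA and 7.38, 7.25 and 7.33 in sham, and 1373092_at read 13.94, 13.82 and 13.79 against 12.88, 12.87 and 12.77. Of the lower ones, 1369720_at read 5.42, 5.56 and 5.13 in OA against 8.12, 8.61 and 8.66 in sham, and 1379437_at read 4.52, 3.97 and 4.54 against 7.25, 7.54 and 7.07.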
